A study of Mus musculus with 8 samples.

Results

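Pou3f1 encodes Oct6, a transcription factor with a POU domain that is active in the epiblast, in neural progenitors and in Schwann cells. POU factors grip DNA with a POU-specific domain and a POU homeodomain, which together read an octamer, and class III members such as Oct6 can also bind as dimers on related palindromic sites. Introns of developmental genes often hold enhancers that act on the host gene or on a neighbour, so binding inside a gene does not by itself name the target.

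The intronic Oct6 peaks described here are those of the deposited day 4 peak list that have a score below 20, a centre inside a protein-coding gene but outside its exons, and more than 1 kb between that centre and any protein-coding transcript start. They number 2393 of the 7979 listed peaks, or 30.0%. The next most frequent classes were peaks in intergenic DNA over 100 kb from a start (2045, or 25.6%), peaks within 1 kb of a start (1640, or 20.6%) and intergenic peaks within 100 kb (1493, or 18.7%). A score of 20 or more was held by 264 peaks, 130 lay in exons and 14 on unplaced contigs. The 2393 intronic peaks lie in 1530 host genes, of which 1516 could be matched to the expression table.

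R1 and R1/E mouse embryonic stem cells were kept on feeder cells and then grown as embryoid bodies, floating aggregates in which derivatives of all germ layers can form. In the induced arm doxycycline switched on an Oct6 transgene, with 1 RNA-seq library each at days 2, 4 and 6. The control arm has 1 library on the same days. Chromatin of cells labelled as overexpressing Oct6 was precipitated at day 4 for 1 ChIP library, with 1 input library from such cells. Whether the control culture also had doxycycline, and whether both arms come from 1 line, the labels leave unsaid, and such differences cannot be told apart from those that Oct6 makes. Titles carry the prefix fbs although the protocol describes a serum-free culture. The antibody and the transgene's promoter are not named in the labels.

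Expression is in FPKM, fragments scaled to transcript length and to library size. Pou3f1 had 311.9 FPKM at day 2, 222.5 at day 4 and 86.81 at day 6 in the induced arm, against 64.33, 10.12 and 4.758 FPKM in the control arm. The stem cell marker Pou5f1 had 436.4, 444.9 and 138.5 FPKM in induced cells, against 890.0, 495.4 and 136.2 in control cells. Other stem cell markers did not all follow it. Nanog had 53.0, 114.6 and 34.69 against 50.56, 96.53 and 20.55, and Sox2 had 66.73, 65.9 and 37.81 against 135.4, 35.48 and 32.79. Utf1 had 100.2, 54.78 and 22.44 against 320.3, 71.92 and 20.55, and Tdgf1 had 140.1, 348.8 and 101.7 against 412.3, 607.8 and 72.55. The table gives no fragment numbers, and depth was not estimated here. Because there is 1 ChIP library and 1 RNA-seq library per arm and day, no peak and no difference within a day has a replicate check.

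Several examples show what these peaks look like at the level of bases, chosen among members that hold a POU motif, 1 per host. They are not simply the members of highest score: a POU motif was held by 10 intronic peaks at 19 and by 15 at 17.7, most of them not shown. Letters are the plus strand of the mouse genome NCBIM37, the assembly behind mm9, and each runs over the whole 133 bp of the deposited peak. Capitals mark an octamer (ATGCAAAT), its variant (ATGCTAAT), or 1 of 3 words that form part of POU dimer sites: ATGAATAT (part A), TGCATATGC (part B) and ATGCATAT (part C), each read on either strand. Part C was added after it was seen among the frequent words of these peaks. The peak in Dpyd, which encodes the first enzyme of pyrimidine breakdown, is at chr3:119100292-119100424, in intron 20 of 22, and scored 19. The peak in Il11ra1, an interleukin 11 receptor gene, is at chr4:41654173-41654305, in intron 2 of 13, and scored 19. The peak in D730040F13Rik is at chr4:56954402-56954534, in intron 1 of 17, and scored 19. The peak in Nrcam, an adhesion molecule of the L1 family, is at chr12:45445155-45445287, in intron 1 of 30, and scored 17.7. The peak in Adcy2, an adenylyl cyclase gene, is at chr13:69045314-69045446, in intron 2 of 24, and scored 16.5. The peak in Kcnd2, which encodes a pore subunit of A-type potassium channels, is at chr6:21293496-21293628, in intron 1 of 5, and scored 15.2. The peak in Plxna2, a semaphorin receptor gene, is at chr1:196547608-196547740, in intron 4 of 31, and the peak in Lrp1b, a gene of the LDL receptor family, is at chr2:42298164-42298296, in intron 1 of 90. Both scored 13.9.
Dpyd: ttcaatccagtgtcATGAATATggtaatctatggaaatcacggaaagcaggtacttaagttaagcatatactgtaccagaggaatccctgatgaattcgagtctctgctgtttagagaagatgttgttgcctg
Il11ra1: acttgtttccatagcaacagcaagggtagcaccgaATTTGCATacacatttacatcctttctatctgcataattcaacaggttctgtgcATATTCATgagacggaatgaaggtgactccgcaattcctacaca
D730040F13Rik: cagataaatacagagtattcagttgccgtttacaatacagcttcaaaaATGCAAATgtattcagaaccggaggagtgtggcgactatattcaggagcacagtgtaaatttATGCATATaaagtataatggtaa
Nrcam: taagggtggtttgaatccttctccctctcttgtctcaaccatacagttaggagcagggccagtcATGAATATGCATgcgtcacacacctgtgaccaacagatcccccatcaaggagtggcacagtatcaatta
Adcy2: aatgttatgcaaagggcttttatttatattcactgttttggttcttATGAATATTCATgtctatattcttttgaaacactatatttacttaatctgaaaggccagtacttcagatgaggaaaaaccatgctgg
Kcnd2: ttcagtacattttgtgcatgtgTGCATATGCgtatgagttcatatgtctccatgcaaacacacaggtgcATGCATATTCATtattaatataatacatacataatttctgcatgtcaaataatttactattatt
Plxna2: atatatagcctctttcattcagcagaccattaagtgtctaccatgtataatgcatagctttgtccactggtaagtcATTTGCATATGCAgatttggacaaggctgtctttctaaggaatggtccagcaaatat
Lrp1b: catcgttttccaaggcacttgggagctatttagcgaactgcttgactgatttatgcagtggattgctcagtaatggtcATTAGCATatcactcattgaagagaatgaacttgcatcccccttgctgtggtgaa

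In the Nrcam and Kcnd2 peaks part A and part C lie on opposite strands and share the letters ATAT at their ends. In the Adcy2 peak part A overlaps its own reverse complement in the same way, and in the Plxna2 peak the octamer overlaps part B. The Il11ra1 and D730040F13Rik peaks hold an octamer and a dimer part at separate places, and the Lrp1b peak holds the octamer variant alone.

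The POU words were several times as frequent in intronic peaks as beside them. An octamer stood in 115 of 2393 intronic peaks, or 4.81% (95% Wilson interval 4.02 to 5.74), against 51 of 4786 windows of the same length beside them, or 1.07% (0.811 to 1.4). Each peak gave 2 such windows, whose outer ends lie 500 bp from the peak edges. The variant ATGCTAAT was in 2.42% of intronic peaks and 0.606% of flanks. Part A was in 6.23% of intronic peaks and 0.878% of flanks, and part B in 1.38% and 0.0627%. Part C, picked for its frequency in these peaks, was in 7.98% of intronic peaks and 1.17% of flanks. At least 1 of the octamer, its variant, part A and part B was in 337 intronic peaks, or 14.1% (12.7 to 15.5), against 2.53% (2.12 to 3.01) of flanks. With part C the shares were 19.6% and 3.68%. A scrambled octamer, ATAGCAAT, was in 0.293% of intronic peaks and 0.46% of flanks. The intervals cover counting error only, and these motif shares describe 1 peak list.

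Most intronic peaks held none of these 4 words: 2056 had none, 246 had 1 and 91 had 2 or more, and 303 host genes had at least 1 such peak. Hits were concentrated at the middle of the peak. Within 50 bp of the centre, part A had 174 hits and part C 257, which is 7.0 and 8.3 times the number per 100 bp found 200 to 500 bp away. Because part C was picked for its frequency in these peaks, its excess was in part selected for. Hits count every copy, so a peak can give several. The octamer had 113 hits there, a ratio of 4.2, and the scrambled word 5 hits, a ratio of 0.7. The octamer and its variant showed no side: 92 of 195 copies, or 47.2% (40.3 to 54.2), lay on the strand of the host gene. Words read by other factors differed less from the flanks. The E-box CAGCTG, read by many bHLH factors, was in 6.6% of intronic peaks (5.68 to 7.67) and 4.64% of flanks (4.08 to 5.27). The SOX core CATTGT was in 8.94% and 7.81%, with overlapping intervals, and the SOX core CTTTGT in 9.44% of intronic peaks (8.34 to 10.7) against 12.2% of flanks (11.3 to 13.2). The joint SOX-POU element of pluripotency enhancers, searched as a fixed word, was in 0 of the 2393 intronic peaks, an upper Wilson bound of 0.16%. It was in 0 of 4786 flanks too, and in 1 of 1493 intergenic peaks within 100 kb of a start. So long a word was too rare everywhere to set intronic peaks apart. The median GC content was 39.1% in intronic peaks and 41.0% in flanks.

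**Figure D1:**
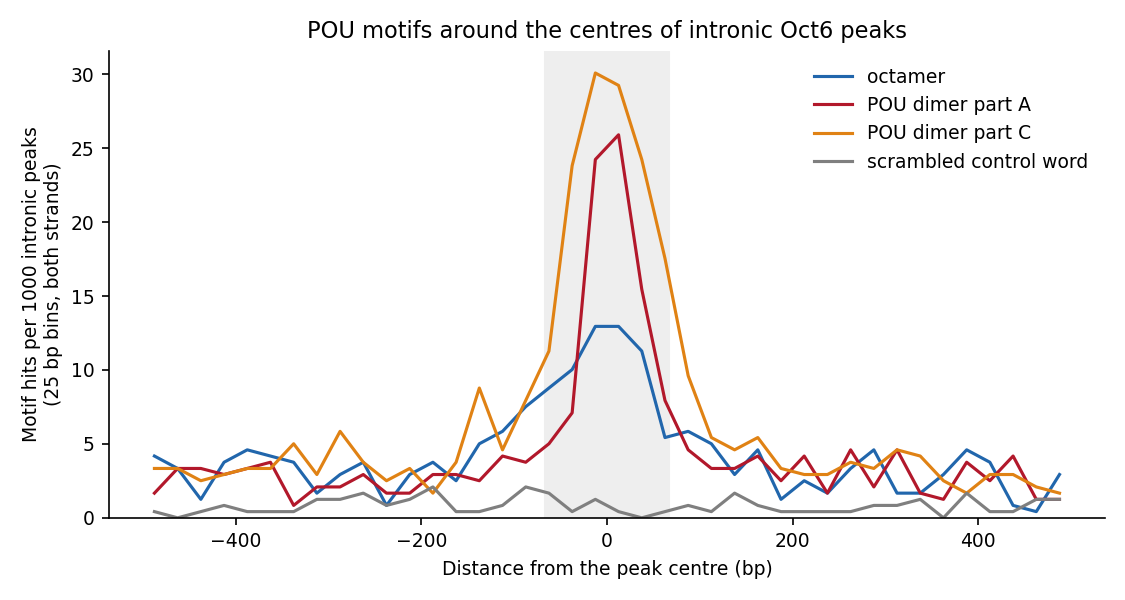
Hits per 1000 intronic Oct6 peaks of the octamer, POU dimer parts A and C and a scrambled octamer (vertical axis, 25 bp bins, both strands) by distance from the peak centre in bp (horizontal axis), with the 133 bp of the peak shaded. Part C and part A peak within 50 bp of the centre, at 8.3 and 7.0 times their level 200 to 500 bp away, the octamer at 4.2 times, and the scrambled word stays low throughout. Part C was picked for its frequency in these peaks.

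POU words were about as frequent in intronic as in intergenic peaks, and scarcer in peaks at gene starts. Any of the 4 POU words was in 14.1% of intronic peaks (12.7 to 15.5), against 13.7% (12.1 to 15.6) of intergenic peaks within 100 kb of a start and 15.7% (14.2 to 17.4) of those beyond 100 kb, all with overlapping intervals. In peaks within 1 kb of a start the share was 2.8% (2.11 to 3.72). These words are rich in A and T, and the median GC content was 39.1% in intronic peaks, against 42.1% and 36.1% in the nearer and farther intergenic peaks and 61.7% in peaks at starts; the part of base composition in the shares was not tested. Of the 264 peaks that scored 20 or more, 33.7% (28.3 to 39.6) held a POU word.

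Scores of the intronic peaks ran from 8.9 to 19 with a median of 11.4. All scores up to 40 in the list fall on whole steps of 1.266, with a largest deviation of 0.051, so the members span 7 to 15 steps with a median of 9. The score is the authors' deposited value, and the labels do not say what it measures. The share with a POU word was 5.41% at the lowest score (2 of 37 peaks), 11.7% at 10.1 (119 of 1021), 12.1% at 11.4, 16.8% at 12.7, 19.8% at 13.9, 22.1% at 15.2, 13.4% at 16.5, 30.6% at 17.7 and 31.2% at 19 (10 of 32). The share was thus higher at most higher scores, with wide intervals above 15.2. Just outside the limit, 8 of the 22 intronic peaks at 20.3 held a POU word (36.4%), and over all 92 intronic peaks of 20 or more the share was 41.3%.

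**Figure D2:**
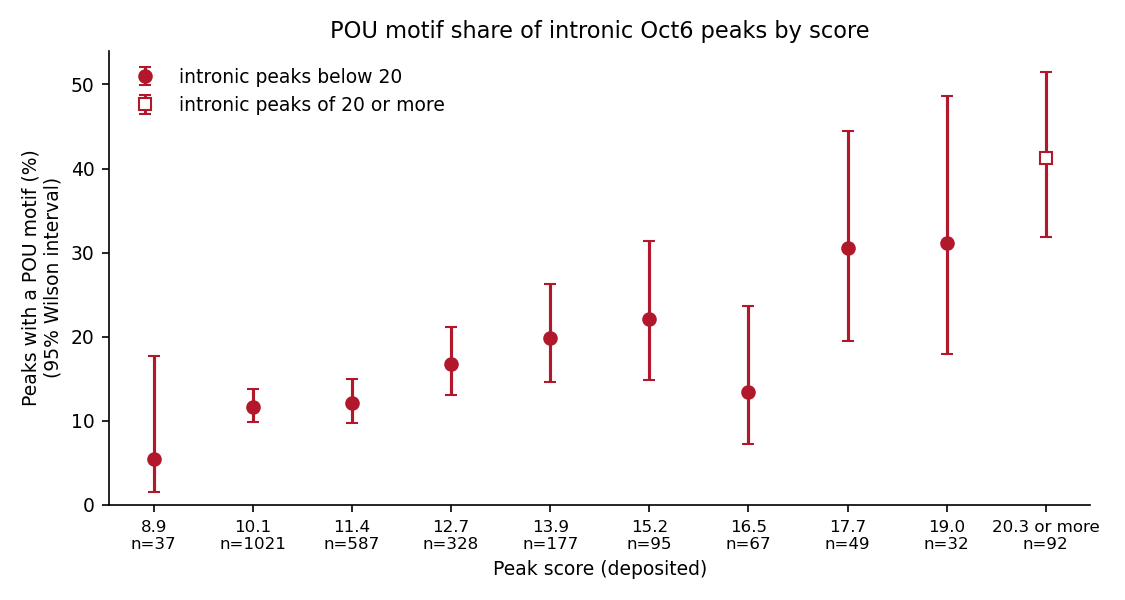
Percent of intronic Oct6 peaks with an octamer, its variant or POU dimer part A or B (vertical axis, bars are 95% Wilson intervals) by deposited peak score (horizontal axis, n peaks below). The 9 filled points are the peaks described here, from 5.41% at 8.9 to 31.2% at 19, and the open square is the 92 intronic peaks of 20 or more, at 41.3%.

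Intronic peaks lay deep in long genes. The distance from a peak centre to the nearest start had quartiles of 8634, 30953 and 83973 bp, and 506 peaks (21.1%) were over 100 kb from any start. The intron that held the peak had a median length of 35946 bp, and the nearest exon of the same transcript was a median of 6203 bp away. Host genes had a median length of 130265 bp, against 15512 bp over all 22238 annotated protein-coding genes. Long genes offer more intronic bases, and the part of length in this difference was not separated. Among 2354 peaks in hosts with 2 or more introns, 633 (26.9%, 25.1 to 28.7) were in the first intron, which holds a mean of 25% of the intronic bases of those hosts.

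Peaks per megabase of intron were not even over chromosomes. There were 4.77 on chromosome 1 and 3.72 on chromosome 14, between 1.63 (chromosome 7) and 3.1 (chromosome 18) on the other autosomes, and 0.262 on chromosome X. Peaks below 20 of all classes were also dense on these 2 chromosomes, with 4.59 per megabase on chromosome 1 and 4.96 on chromosome 14. The median expression difference of induced minus control cells over genes of chromosome 1 was 0.21, 0.11 and 0.07 at days 2, 4 and 6 on the log2 scale. Over the autosomes, chromosome 1 included, these medians ranged from 0.10 to 0.24, 0.04 to 0.17 and 0.02 to 0.11. A difference between arms cannot show what both arms share, and the cause of the uneven peak density was not tested.

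Most hosts had a single intronic peak. There were 1104 hosts with 1, 242 with 2, 81 with 3 and 103 with 4 or more, and the last group held 24.7% of the peaks. Those with 10 or more were as follows. Pcdh9, a protocadherin gene, had 18 peaks in its 3 introns, 17.2 to 851.7 kb from its start (chromosome 14, 93414731 to 94287951, minus strand), with scores of 10.1 to 16.5 and a POU word in 6 of them. Dach1, which encodes a nuclear cofactor of eye, limb and forebrain development, had 12 peaks between 1.1 and 366.4 kb from its start (chromosome 14, 98186066 to 98568984, minus strand) and none with a POU word. Dpp10, an accessory protein of A-type potassium channels, Lrp1b and Nckap5 had 11 each. So had the very long gene model Gm20388, which spans other genes and is not in the expression table, and 3 of its peaks are in no other protein-coding gene. Ctnna3, an alpha-catenin gene, Diap3, a formin gene, Dpyd, Macrod2, the cAMP phosphodiesterase gene Pde4d and the delta-sarcoglycan gene Sgcd had 10 each.

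The hosts with the most peaks were mostly weakly expressed. Pcdh9 had 1.571, 1.142 and 1.768 FPKM in induced cells on the 3 days, against 0.07719, 0.1009 and 0.1296 in control cells, higher on each day. Lrp1b did not pass 0.07299 FPKM in any library and Nckap5 not 0.4136. Dpp10 had at most 1.008 FPKM, in induced cells at day 6, and Ctnna3 at most 0.1577, in induced cells at day 4. Diap3 was expressed in both arms, with 15.8, 9.794 and 11.35 FPKM in induced cells against 12.16, 13.97 and 15.23 in control cells, an order that turned after day 2. Pde4d had 6.33, 5.739 and 3.065 FPKM in induced cells and 3.184, 3.828 and 1.671 in control cells. Dpyd had 0.8302, 2.214 and 1.532 FPKM in induced cells against 0.04455, 0.6853 and 0.6073 in control cells, and Macrod2 had 3.936, 3.916 and 3.488 against 3.991, 2.791 and 2.575. Sgcd reached 1.063 FPKM in induced against 0.01464 in control cells at day 4. Dach1, alone in this group, passed the 2-fold difference every day, with 7.292, 10.11 and 8.765 FPKM in induced cells against 0.1317, 1.129 and 3.33 in control cells. Of the peaks that scored 19, 1 lay in Frzb, a secreted Wnt antagonist gene, and 1 in Tle3, a Groucho corepressor gene. Tle3 had 19.92, 18.54 and 21.61 FPKM in induced cells, against 8.838, 20.87 and 23.89 in control cells. At the other end of abundance, the hosts of highest FPKM in induced cells at day 4 were Pkm2 (pyruvate kinase, 1456 against 2073 in control cells), Mdk (the growth factor midkine, 453.8 against 279.3) and Shfm1 (343.4 against 264.8), each with 1 peak.

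Host genes were expressed above the table's typical level in both arms. Over the 1516 hosts the median was 4.76, 5.02 and 5.06 FPKM in induced cells on the 3 days, against 2.23, 3.17 and 4.18 in control cells. Over all 22558 genes of the table it was 1.79, 1.91 and 2.0 in induced cells, against 1.09, 1.43 and 1.78 in control cells. An FPKM of 1 or more was reached by 69.7%, 72.3% and 71.4% of hosts in induced cells and by 58.6%, 62.8% and 66.1% in control cells. Over all genes these shares were 54.6%, 54.8% and 55.2% in induced cells and 50.7%, 52.5% and 54.1% in control cells.

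The question for the hosts was how their transcripts differed between induced and control cells. Differences are of log2(FPKM + 1), which understates the change of weakly expressed genes, and a gene counted as higher or lower when it differed by 1 or more, a 2-fold change on that scale. At day 2, 249 hosts were higher and 12 lower. At day 4, 198 were higher and 16 lower, and at day 6, 95 were higher and 15 lower. Of hosts with 1 FPKM or more in either library, the higher ones were 23.3% of 1068, 17.7% of 1118 and 8.59% of 1106 on the 3 days, where over all genes so tested 9.72%, 6.09% and 3.37% were higher. The lower ones were 1.12%, 1.43% and 1.36% of hosts, against 1.83%, 2.11% and 2.1% of all genes. Because a weak gene can pass this floor through its higher library alone, the shares were also taken over every host in the table: 16.4%, 13.1% and 6.27% were higher, against 5.42%, 3.42% and 1.92% of all genes in the table. After quantile normalisation 16.5%, 13.9% and 6.96% of tested hosts were higher and 1.77%, 1.91% and 1.86% lower, against 5.82%, 4.36% and 2.61% of all tested genes higher and 3.71%, 3.09% and 2.47% lower. The median difference over tested hosts was 0.41, 0.28 and 0.13, against 0.17, 0.10 and 0.06 over all tested genes, a shift of the whole library at day 2 against which single values can be read. Libraries of whole embryoid bodies cannot tell more cells of a type from more RNA per cell.

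At least 2-fold higher on all 3 days were 57 of 1019 hosts tested on every day (5.59%, where 1.2% of 11790 genes were), and 1, Cubn, was lower on all 3 days (0.0981%, where 0.0848% of genes were). Over every gene in the table, 3.76% of hosts and 0.625% of all genes were higher on all 3 days. The 3 days were also fitted together with limma, with the day as a block, which tests the spread of the effect between days and not between repeated cultures. At a Benjamini-Hochberg adjusted p under 0.05 the fit called 0 of 1171 hosts, and 3 of 13661 genes (0.022%). At an unadjusted p under 0.05, 393 hosts (33.6%) were higher and 29 lower, where 16.3% of all genes were higher and 4.72% lower. That balance depended on the scaling: with libraries scaled to the median ratio 27.2% of hosts were higher and 4.62% lower, against 11.2% and 8.15% of all genes, and after quantile normalisation 25.2% of hosts were higher and 5.14% lower, against 10.4% and 9.11% of all genes. With no floor on FPKM, 24.1% of hosts and 10.4% of all genes were higher. The hosts nearest to the threshold were Dclk1, a microtubule-associated kinase of young neurons, with a log2 difference of 2.02 ± 0.136 (SE, higher on 3 of 3 days, limma adjusted p 0.0538), and Lrrn1, a leucine-rich repeat protein of neurons, with 2.55 ± 0.182 (3 of 3 days, limma adjusted p 0.0538). Without day 6 the fit called 17 hosts among 44 of 13173 genes (0.334%), and without day 2 it called 11 hosts among 57 of 13279 genes (0.429%).

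Hosts with 2 or more intronic peaks were more often higher than hosts with 1. Over every host in the table, 8.97% of 1093 hosts with 1 peak were higher at day 4 (7.41 to 10.8), 19.6% of 240 with 2 (15.1 to 25.1), 25.9% of 81 with 3 (17.6 to 36.4) and 31.4% of 102 with 4 or more (23.2 to 40.9). At day 2 the shares were 13.4%, 23.3%, 28.4% and 23.5%, so the class with the most peaks lay below the one with 3, and at day 6 they were 3.66%, 9.58%, 13.6% and 20.6%. From 2 peaks on, the intervals of neighbouring classes overlapped on each day. The intervals on shares of genes, here and below, cover counting error only. They hold no spread between cultures, as each day had 1 library per arm. Of hosts at 1 FPKM or more in either library day 2 gave 18.3%, 33.9%, 43.4% and 44.4%. For day 4 these were 12.0%, 26.3%, 37.5% and 47.1%, and for day 6 they were 4.9%, 13.7%, 20.4% and 31.3%, but that floor was passed by 815 of the 1093 hosts with 1 peak at day 4 and by 68 of the 102 with 4 or more. Gene length went along with peak number, with medians of 92.6, 224.7, 311.0 and 604.7 kb, so these shares do not separate the number of peaks from length. No host with 3 or more peaks was 2-fold lower on any day, among 53, 56 and 54 tested hosts with 3 peaks and 54, 68 and 67 with 4 or more. Over all tested genes 1.83%, 2.11% and 2.1% were lower. In groups of this size such shares amount to few genes, so the count of 0 does not set these hosts apart.

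**Figure D3:**
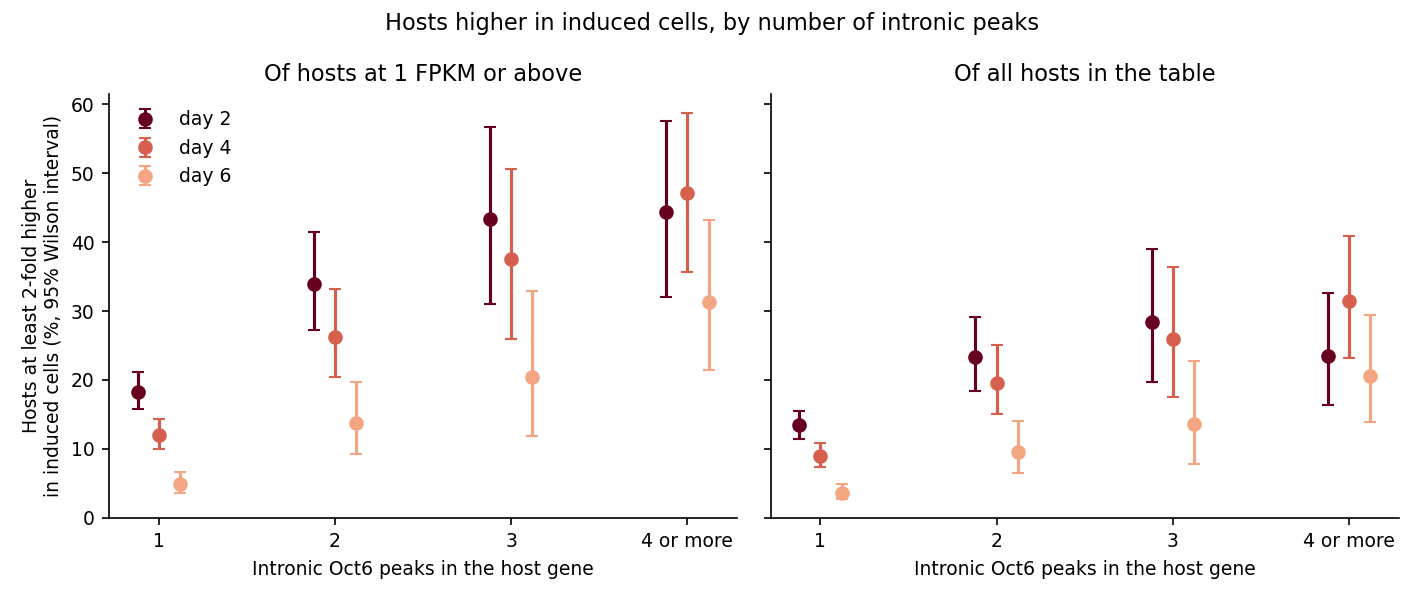
Percent of host genes at least 2-fold higher in induced than in control cells (vertical axis, bars are 95% Wilson intervals) by the number of intronic Oct6 peaks in the gene (horizontal axis), with 1 point per day, among hosts at 1 FPKM or above (left) and among all hosts in the table (right). Among all hosts, those with 1 peak give 13.4%, 8.97% and 3.66% at days 2, 4 and 6, and those with 4 or more give 23.5%, 31.4% and 20.6%.

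Between 100 and 500 kb of gene length, host genes were more often higher than genes with no intronic Oct6 peak below 20. These other genes include those whose intronic peaks all scored 20 or more: without a score limit 1560 genes in the table were hosts, against 1516. Over all genes in the table between 200 and 500 kb, 22.8% of hosts were higher at day 2 (18.8 to 27.4), against 10.1% of other genes (7.41 to 13.5). In that class 19.5% of hosts were higher at day 4 and 8.79% at day 6, against 7.14% and 3.17% of other genes. Between 100 and 200 kb the shares on the 3 days were 19.5%, 14.8% and 7.65% of hosts, against 10%, 6.42% and 2.04% of other genes. Between 20 and 50 kb they were 13.4%, 7.95% and 3.35% of hosts, against 4.61%, 1.87% and 1.11%. In these 3 classes the intervals were apart on each day, which does not show that repeated cultures would give the same. Between 50 and 100 kb, 11.3%, 5.99% and 3.17% of hosts and 6.94%, 3.35% and 1.48% of other genes were higher, with overlapping intervals. They overlapped on each day over 500 kb as well, where 14.6%, 18.5% and 8.92% of 157 hosts were higher, against 17.5%, 17.5% and 2.5% of 40 other genes. Up to 20 kb the shares were 5.38%, 6.45% and 3.23% of hosts and 3.82%, 2.49% and 1.39% of other genes, with intervals apart at day 4 alone. Restricted to genes at 1 FPKM or more, the class of 200 to 500 kb gave 35.0%, 27.5% and 12.5% of hosts, against 17.3%, 11.9% and 5.06% of other genes, and the class over 500 kb gave 41.8%, 38.2% and 19.4% of hosts, against 41.2%, 41.2% and 4.76% of other genes.

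**Figure D4:**
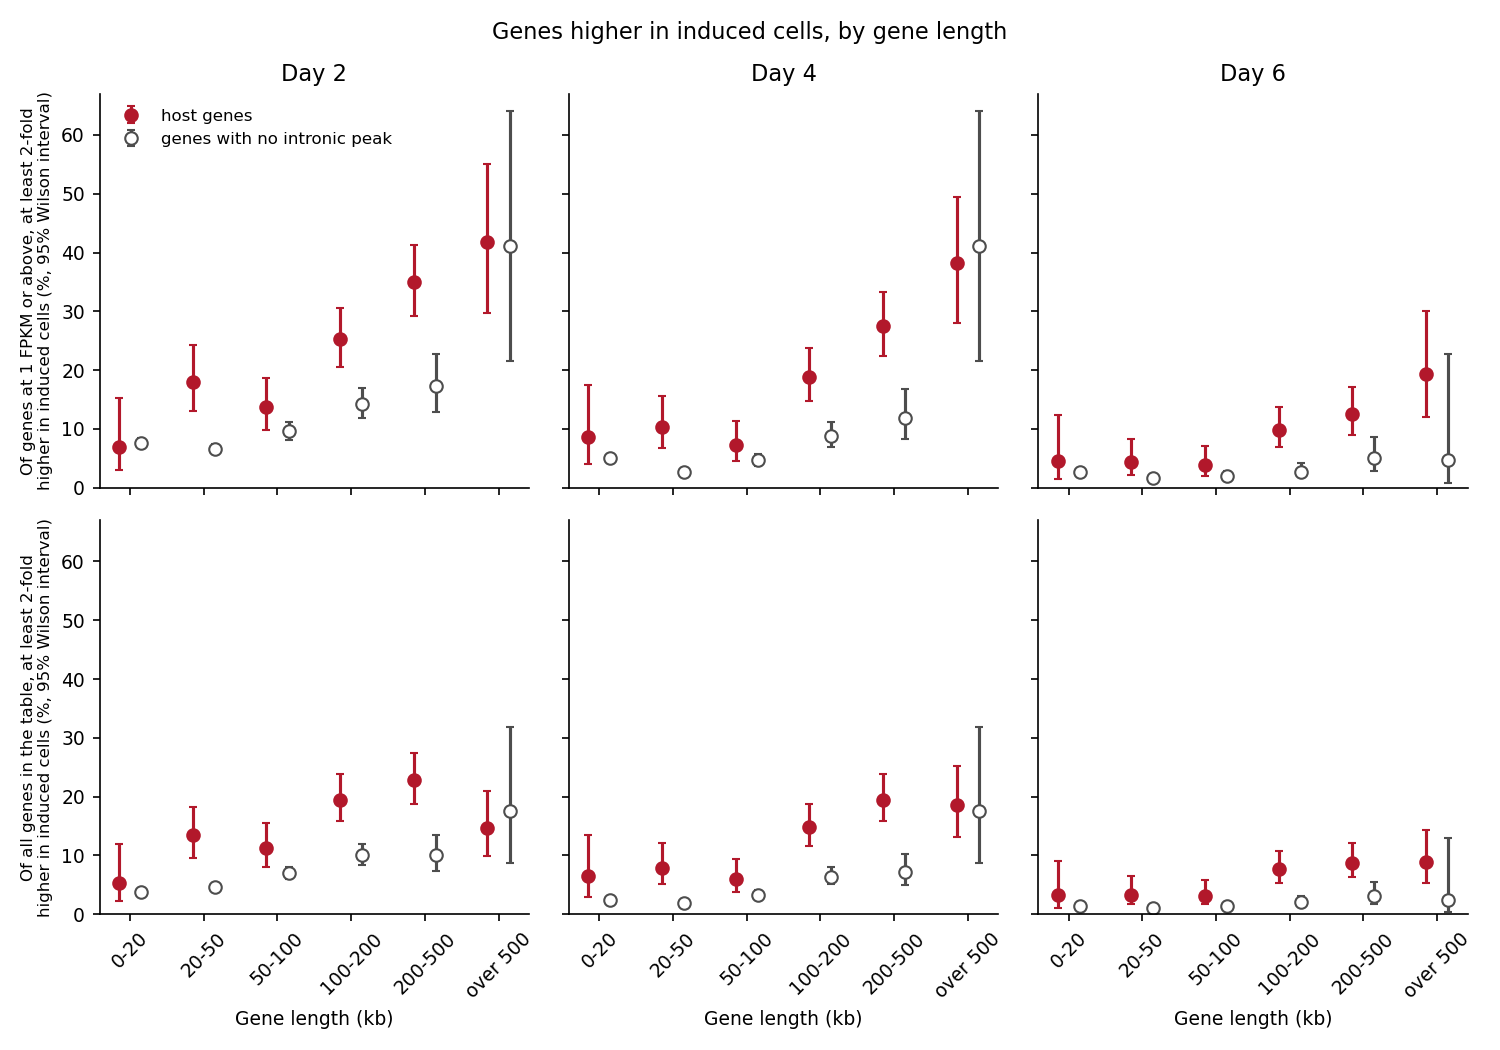
The vertical axis is the percent of genes at least 2-fold higher in induced than in control cells, with 95% Wilson intervals as bars. The horizontal axis is gene length in kb, at days 2, 4 and 6. Host genes are filled (left), and genes with no intronic Oct6 peak below 20 are open (right). The top row has genes at 1 FPKM or above, and the bottom row all genes in the table. Between 100 and 500 kb hosts lie above other genes on all 3 days in both rows, and over 500 kb the intervals overlap.

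Over every host in the table, hosts with a POU word in an intronic peak were higher in 15.9% of cases at day 2, 18.9% at day 4 and 11.3% at day 6, against 16.5%, 11.6% and 5.02% of hosts without one. The intervals overlap at day 2 and not at day 4 (14.9 to 23.7 against 9.92 to 13.5) or day 6 (8.2 to 15.4 against 3.93 to 6.4). Median lengths were 197.3 kb for hosts with and 115.3 kb for hosts without such a word. Hosts whose best intronic peak scored 15.2 to 19 were higher in 17.6%, 17.2% and 14% of cases, against 16.2%, 12.4% and 4.94% of hosts whose best score was lower, with intervals that are apart at day 6 alone. Their median lengths were 179.6 and 123.9 kb. A host with more peaks has more chances to hold a POU word or a high best score. These shares therefore do not separate word or score from peak number or length. Hosts with a further peak within 1 kb of their start were higher in 20.3%, 15.8% and 10.4% of cases, against 15.8%, 12.6% and 5.63% without, with overlapping intervals on each day. Genes with a peak at the start and no intronic peak below 20 were higher in 7.34%, 3.5% and 1.52% of cases, with a median length of 20.9 kb.

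A group of 11 hosts had 5 or more intronic peaks and were at least 2-fold higher in induced cells on all 3 days. Dach1 is given above. Ebf1, a helix-loop-helix factor of neuronal and B cell differentiation, had 19.36, 13.11 and 6.447 FPKM in induced cells against 0.8059, 0.2481 and 0.7803 in control cells, and 7 peaks spread over 5 of its introns (chromosome 11, 44430819 to 44821593, plus strand), 17.2 to 360.9 kb from its start. Every induced value of Ebf1 was above every control value. Its log2 difference in limma's fit was 3.02 ± 0.331 (SE, 3 of 3 days, adjusted p 0.0838). Nrcam, whose first-intron peak is printed above, had 6 peaks 15.3 to 117.2 kb from its start and 12.65, 10.59 and 6.336 FPKM in induced cells against 1.277, 2.885 and 1.542 in control cells. Cacna2d1, an auxiliary calcium channel subunit, had 7 peaks and 13.41, 10.96 and 8.974 FPKM in induced cells against 2.136, 1.566 and 3.488 in control cells.

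A further 7 hosts made up the rest of that group. Ptprd, a receptor tyrosine phosphatase of synapses, had 5 peaks and 5.893, 7.295 and 5.17 FPKM in induced cells against 0.1354, 0.3116 and 1.311 in control cells. Lphn3, an adhesion receptor, had 7 peaks and 2.377, 2.92 and 2.078 FPKM in induced cells against 0.2713, 0.05713 and 0.2923 in control cells. Kcnd2 had 5 peaks and 1.265, 2.522 and 1.98 FPKM in induced cells, against 0.0215 and 0.02421 in control cells at days 2 and 4 and a listed 0 at day 6. In these 3 genes the arms did not overlap over the days. Rgs7, a regulator of G protein signalling, had 8.461, 4.846 and 2.318 FPKM in induced cells against 0.04649, 0.2602 and 0.1231 in control cells. Pde1a, a calmodulin-dependent phosphodiesterase gene, had 2.884, 9.059 and 4.083 FPKM in induced cells against 0.05774, 0.07282 and 0.1068 in control cells. Fmn2, a formin gene, had 7.395, 8.113 and 5.652 FPKM in induced cells against 1.956, 0.9112 and 0.7079 in control cells, and Dok5, an adaptor of receptor tyrosine kinases, had 2.858, 7.22 and 9.878 against 0.4417, 0.6792 and 2.414.

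**Figure D5:**
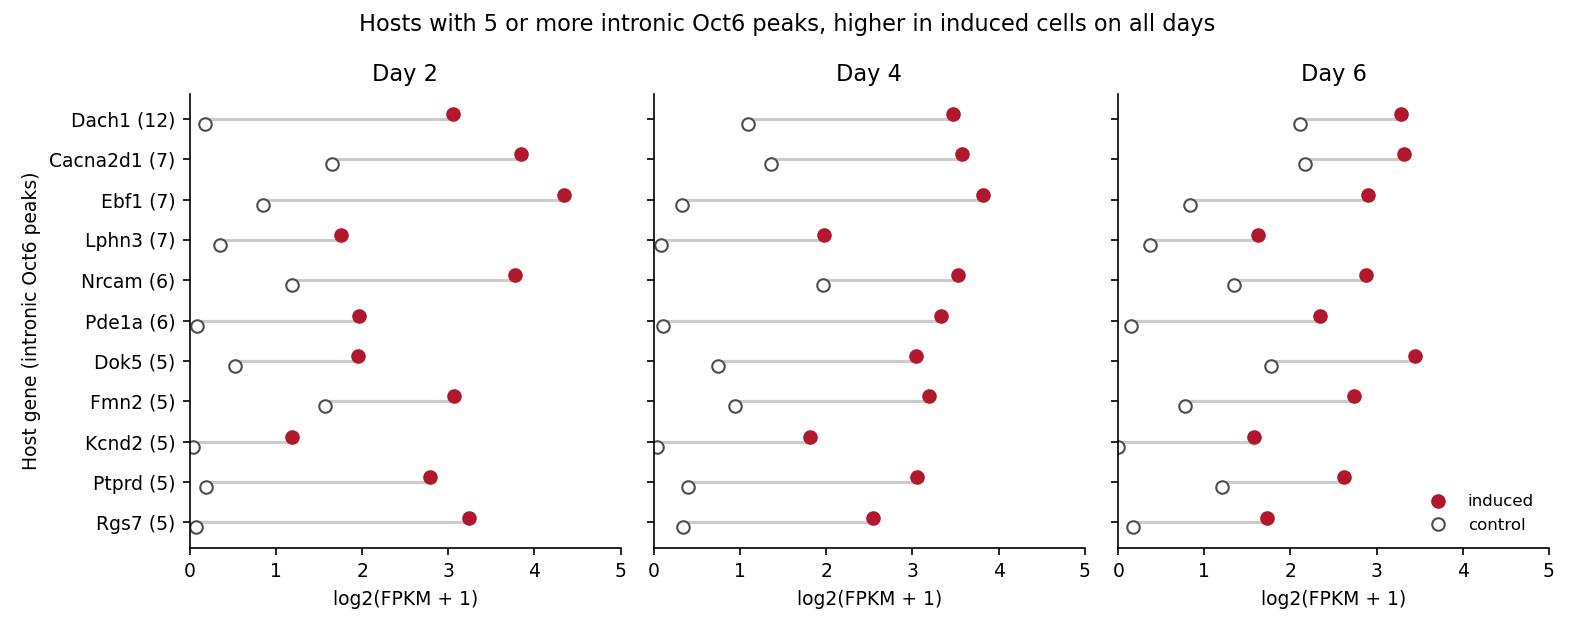
Level as log2(FPKM + 1) (horizontal axis) of the 11 hosts with 5 or more intronic Oct6 peaks that were at least 2-fold higher on all days (vertical axis, number of peaks in brackets), in the induced (filled) and the control library (open) of each day. The induced point lies to the right in each gene and day, as the choice of genes requires.

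The host with the largest difference of each day had 1 intronic peak. Ebf3, with 1 peak, had 37.26, 8.823 and 6.204 FPKM in induced cells against 0.0981, 0.04239 and 0.6612 in control cells, a difference of 5.12 at day 2. Nell2, a secreted glycoprotein of neurons with 1 peak 2.4 kb from its start, had 5.748, 26.35 and 9.087 FPKM in induced cells against 0.4868, 0.3904 and 0.5335 in control cells, a difference of 4.30 at day 4. Grb14, an adaptor that inhibits insulin receptor signalling, had 28.03, 35.83 and 18.55 FPKM in induced cells against 1.175, 2.867 and 2.646 in control cells. Arid5b, a chromatin-associated factor, had 43.76, 32.99 and 12.91 against 6.218, 1.977 and 4.674. The neuronal cytoskeleton gene Mtap2, listed here under its older symbol for Map2, had 8.914, 14.64 and 17.43 FPKM in induced cells against 1.662, 2.361 and 1.842 in control cells, the difference of 2.70 at day 6 being among the 4 largest of that day. Rtn1, a reticulon of neurons, had 13.62, 11.56 and 9.958 against 2.525, 0.9759 and 1.057. In each of these genes the lowest induced value was above the highest control value, by the least in Arid5b.

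Other hosts, with 1 or 2 peaks each, were also at least 2-fold higher on all 3 days. Pam, which amidates neuropeptides, had 45.79, 63.62 and 41.15 FPKM in induced cells against 3.28, 9.276 and 17.08 in control cells, and the granule protein gene Scg5 had 3.327, 5.089 and 4.388 against 0.1607, 1.194 and 1.306. Glrb, the beta subunit of glycine receptors, had 4.469, 6.049 and 3.629 against 0.325, 0.5259 and 0.8609. Gpm6a, a membrane glycoprotein of neurons, had 4.58, 8.775 and 8.463 against 0.6265, 0.9009 and 2.061, and Kcnmb4, a subunit of calcium-activated potassium channels, had 9.113, 18.09 and 14.82 against 0.205, 2.622 and 5.801. Crym, a thyroid hormone binding protein, had 70.5, 51.6 and 10.11 FPKM in induced cells against 4.854, 7.051 and 3.072 in control cells, and Oxct1, an enzyme of ketone body use, had 98.11, 61.39 and 30.95 against 17.15, 26.54 and 10.92. For both, the induced level was lowest at day 6. Hoxb4, a factor of posterior identity, had 4.594, 4.023 and 6.008 against 0.3202, 0.09889 and 1.635, and Pdgfc, a growth factor, had 14.39, 11.64 and 7.828 against 5.336, 0.7392 and 3.359.

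Col1a2, a fibrillar collagen gene with 1 peak, had 80.17, 30.35 and 11.24 FPKM in induced cells against 1.76, 1.003 and 9.718 in control cells. Col1a1, whose product forms trimers with that of Col1a2, had 4.132, 1.457 and 7.896 FPKM in induced cells against 2.012, 1.719 and 20.81 in control cells. The fibroblast marker Thy1 had 4.383, 2.152 and 1.476 in induced cells against 4.731, 5.867 and 2.734 in control cells. Postn, the matrix protein periostin and also a host, had 1.496, 5.364 and 6.787 against 0.1429, 0.1007 and 32.97. Of these 4 genes of fibroblasts and matrix, Col1a2 and Postn were at least 2-fold higher in induced cells at days 2 and 4, Thy1 was lower at day 4, and Col1a1 and Postn were lower at day 6.

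Hosts were 6.72% of all genes in the table, and the share of a gene list that were hosts can be read against that, although lists of long genes offer more intronic bases. Of 42 genes of a neuronal differentiation list in the table, 18 were hosts (42.9%). At day 2, 7 of 11 tested hosts were higher, at day 4, 6 of 12, and at day 6, 9 of 13, and none was lower, with median differences of 1.44, 0.97 and 1.14. Over all 18 hosts, tested or not, 7, 6 and 9 were higher. In this list and those below, a weak gene can be tested through its higher library alone, and unexpressed genes drop out of the tested counts and medians. Ebf1, Ebf3, Lmo3 and Syt1 were higher on all 3 days. Lmo3, a LIM-only cofactor, had 3.992, 9.243 and 3.824 FPKM in induced cells, against 0.05717, a listed 0 and 0.2159 in control cells. The synaptic vesicle calcium sensor Syt1 had 2.166, 2.753 and 1.74 in induced cells against 0.1698, 0.1149 and 0.2821. The microtubule protein Mapt, the RNA-binding proteins Elavl4 and Celf4 and the stathmin Stmn2 were among those higher at day 6 alone: Elavl4 then reached 3.141 FPKM in induced cells against 0.427 in control cells. Among list genes that are not hosts, 10 of 18, 8 of 16 and 16 of 21 were higher, so the hosts did not stand apart by these counts.

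Of 39 axon guidance genes, 23 were hosts. Of these 23 hosts, 13, 10 and 4 were higher on the 3 days. The hosts tested were 15, 19 and 19, with medians of 2.14, 1.01 and 0.21. Among ligands, Efna5 (an ephrin) had 7.884, 9.073 and 7.083 FPKM in induced cells against 0.3999, 2.075 and 7.159 in control cells, and Slit2 had 2.388, 2.974 and 4.006 against 0.35, 2.467 and 5.719. Control levels of both rose over the days. For Efna5 the 2 arms came together, and for Slit2 the control level was above the induced one at day 6. Among receptors, the Slit receptor Robo1 had 36.71, 19.88 and 14.46 FPKM in induced cells against 4.813, 7.784 and 12.72 in control cells. The semaphorin receptor Plxna2, whose peak above joins an octamer to a dimer part, had 28.32, 16.72 and 17.53 against 0.5973, 5.283 and 6.888. The ephrin receptor Epha4 had 22.306, 18.026 and 14.86 against 3.281, 3.248 and 9.819, and Epha3 had 3.667, 3.05 and 3.759 against 0.06022, 0.1221 and 0.1066. The netrin receptor Unc5c, with 5 peaks, had 3.728, 2.648 and 8.693 against 0.038, 0.291 and 6.545. Dcc, a netrin receptor with 8 peaks, reached 1.788 FPKM in induced against 0.016 in control cells at day 6. Sema6a, a transmembrane semaphorin, was lower at days 2 and 4, with 5.425, 6.171 and 4.452 in induced cells against 13.27, 16.86 and 5.989 in control cells. Slit3 was lower at day 4, with 5.163 against 11.532. Of list genes that are not hosts 7 of 13, 5 of 15 and 3 of 15 were higher.

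Of 36 cadherin and adhesion genes, 24 were hosts. Of these 24 hosts, 7, 10 and 7 were higher on the 3 days and none was lower. The hosts tested were 13, 19 and 19, with medians of 1.26, 1.12 and 0.73. Of list genes that are not hosts 5 of 9, 5 of 9 and 2 of 10 were higher. Cdh2 (N-cadherin) had 16.42, 33.1 and 40.01 FPKM in induced cells against 5.243, 32.34 and 32.15 in control cells, apart at day 2 alone. Cdh8 had 0.7048, 3.074 and 2.345 against 0.08109, 0.09703 and 0.2937. Negr1, a neuronal growth regulator of the immunoglobulin family, had 0.7648, 4.013 and 2.905 against 0.02862, 0.05517 and 0.1274. Ptprz1, a receptor phosphatase of radial glia, had 3.534, 4.36 and 3.633 against 0.3614, 0.3105 and 1.066, and the extracellular guidance protein Reln had 3.775, 2.508 and 2.463 against 0.457, 0.318 and 2.252.

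Of 48 neural progenitor genes, 11 were hosts. Of these 11 hosts, 6, 4 and 1 were higher on the 3 days, with 8, 10 and 10 tested, and none was lower. Meis1 had 7.621, 9.171 and 14.42 FPKM in induced cells against 0.3911, 0.2366 and 8.101 in control cells, and Meis2 had 6.693, 11.15 and 14.91 against 0.8959, 2.156 and 13.62. Their partner Pbx3 had 50.96, 48.93 and 41.75 against 5.046, 17.38 and 16.11, and Zeb2 had 8.043, 6.219 and 8.539 against 0.4065, 1.636 and 4.581. Pbx3 was the member higher on all 3 days, while the control levels of the Meis genes and Zeb2 were nearest to the induced ones at day 6. List genes that are not hosts were higher in 7 of 23, 18 of 29 and 7 of 32 cases.

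Of 30 pluripotency genes 5 were hosts (16.7%). Nr5a2, an orphan receptor of naive cells with 5 peaks, had 12.67, 12.94 and 4.821 FPKM in induced cells against 8.161, 1.375 and 1.241 in control cells, and Tcfcp2l1 had 12.34, 13.08 and 6.45 against 8.103, 4.384 and 2.878. Jarid2, a Polycomb cofactor, had 41.05, 28.24 and 23.96 against 100, 35.75 and 25.85, lower by 1.26 at day 2. The 25 pluripotency genes that are not hosts gave 2, 10 and 7 higher and 6, 0 and 0 lower on the 3 days. Of 15 primed epiblast genes, Cdh2 was the 1 host (6.67%). The 14 others gave 8, 4 and 0 lower, and 1 higher on each day. Of 42 BMP and TGF-beta genes 7 were hosts, with Acvr2a (10.8 FPKM in induced and 4.191 in control cells) higher at day 2 and Ltbp1 (4.502 and 11.24) lower at day 6. Tested BMP and TGF-beta genes that are not hosts were higher in 8 of 29, 4 of 31 and 3 of 33 cases, and 0, 2 and 2 were lower. Of 43 Wnt genes 8 were hosts, with Tle3 and Prickle2 higher and Tcf7l1 lower at day 2, Tle4 higher at day 4 and Ror1 lower at day 6. Tcf7l1, a repressor of Wnt targets, had 12.75, 11.79 and 12.39 FPKM in induced cells against 28.85, 20.41 and 22.77 in control cells. Tested Wnt genes that are not hosts were higher in 5 of 29, 3 of 33 and 1 of 35 cases, and 2, 0 and 1 were lower. Of 28 FGF and ERK genes 7 were hosts and none of these changed 2-fold. These hosts include Fgfr2, whose 8 peaks lie in the first intron of a 3009.1 kb gene model. The tested others were higher in 3 of 18, 1 of 19 and 0 of 19 cases, and 2, 3 and 0 were lower. Of the 2 Notch hosts among 22 genes Maml3 was higher at day 2 (2.865 FPKM in induced and 0.1716 in control cells). Tested Notch genes that are not hosts were higher in 1 of 16, 0 of 18 and 3 of 20 cases, and none was lower. Of the 3 Hedgehog hosts among 14 Boc was higher at day 6 (6.885 and 2.363). The tested others were higher in 1 of 9, 0 of 9 and 0 of 11 cases, and 3, 0 and 1 were lower. Of 9 hosts among 43 chromatin regulators, Auts2 was higher at days 2 and 4, with 9.461 and 7.303 FPKM in induced against 3.048 and 3.054 in control cells. The 34 chromatin regulators that are not hosts gave 5, 6 and 1 higher and 2, 1 and 0 lower. None of 16 retinoid genes was a host.

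Cubn, an endocytic receptor of visceral endoderm with 2 peaks, was the host lower on all 3 days. It had 0.5273, 0.7988 and 1.267 FPKM in induced cells against 7.264, 15.02 and 11.15 in control cells, and its limma difference was -2.67 ± 0.209 (SE, lower on 3 of 3 days, adjusted p 0.0637). Cubn was 1 of 2 hosts among 24 endoderm genes, and of list genes that are not hosts 6 of 14, 14 of 22 and 11 of 22 were lower. Other markers of visceral endoderm moved with it at day 4: Afp had 0.03468 FPKM in induced against 3.642 in control cells, Ttr 0.1996 against 26.63, Apoa1 0.0674 against 8.682 and Dab2 3.689 against 45.67. Among 5 mesoderm hosts of 34 genes, Ebf1, given above, was higher on all 3 days. Of the others, Gata4, a factor of cardiac mesoderm and endoderm, was lower at day 4 (3.549 in induced and 14.55 in control cells) and Mef2c, a muscle and neuron factor, was lower at day 6 (0.6703 and 5.82). Of mesoderm genes that are not hosts 2 of 11, 7 of 20 and 10 of 27 were lower on the 3 days. Tnni1, a slow skeletal troponin gene, had 8.516 FPKM in induced cells at day 6 against 49.39 in control cells. The cardiac genes Myl7, Tnnt2 and Actc1 had 2.548, 2.093 and 1.41 FPKM in induced cells on that day against 57.52, 43.78 and 41.62 in control cells. The protease gene Tmprss2 (2.296 against 11.3), the ankyrin-repeat gene Asb4 (2.257 against 9.52), Npl, which encodes a sialic acid lyase (13.24 against 41.45), and the phospholipase gene Plcg2 (4.462 against 12.8) were, with Cubn and Gata4, among the 8 hosts with the most negative difference at day 4. The part of a changed cell mixture in these values was not tested.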

How the data were processed

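The submitters' processing notes name the genome build mm9 and the tools HOMER, Cuffdiff, Cufflinks 1.3.0 and TopHat 1.4.1. The authors deposited FPKM per gene symbol and RNA library, and 1 peak list whose score per peak is the authors' own; its scaling is not stated. Multi-mapping and strand treatment are not stated, so near-identical copies and overlapping genes are uncertain.

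Peaks were placed on GENCODE protein-coding models of NCBIM37 (1530 hosts, 1516 matched, 1514 by the same symbol, the rest by synonym), and 34 peaks lie in 2 or 3 overlapping genes. Motifs were counted on both strands, and shares carry 95% Wilson intervals. Levels were compared as log2(FPKM + 1), among genes at 1 FPKM or above in at least 1 of the 2 libraries. Shares by peak number, gene length and motif are also given over all genes in the table, an alternative chosen after seeing the data. The 3 days were fitted with limma 3.58.1 in R 4.3.3 (eBayes with a trend, the day as a block, which leaves 2 residual degrees of freedom, and p-values adjusted by Benjamini-Hochberg over 13661 genes). The day labels pair the arms by time point. Python 3.11.15, pandas 2.3.3, numpy 2.4.6 and pysam were used, and steps were tested on simulated data.

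The named hosts are those with the most peaks, with the 10 peaks of highest score, changed on all 3 days, most changed on a day, up to 4 per gene list, and of highest level. Some hosts that meet this rule are not reported here. Other hosts named as list members were chosen after their values were seen. The members, the 15 gene lists and the rule were chosen with earlier results of these data known.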

Additional observations from a re-analysis of the deposited data

Results flagged for a closer look

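Several hosts were at least 2-fold higher in induced cells on 1 day and at least 2-fold lower on another. With 1 library per arm and day, the difference between the days was not tested in any of them. Postn, the matrix protein periostin, differed by 2.53 at day 4 on the log2(FPKM + 1) scale, with 5.364 FPKM in the induced and 0.1007 in the control library, and by -2.13 at day 6, with 6.787 and 32.97. Frzb, which holds an intronic peak of score 19, differed by 1.67 at day 2 (2.727 FPKM in induced and 0.1742 in control cells) and by -1.48 at day 6 (11.93 and 35.13). Fbn1, the microfibril protein fibrillin 1, differed by 1.09 at day 2 (2.732 and 0.747) and by -1.02 at day 6 (1.733 and 4.541). In these 3 genes the control level was highest at day 6. Amd1, a polyamine synthesis gene with near-identical copies in the genome, differed by 3.48 at day 4 (10.65 FPKM in induced and 0.04407 in control cells) and by -3.19 at day 2 (0.01702 and 8.284), and its values are uncertain.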

How the results depend on the processing

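The number of intronic peaks ranged from 1992 with a start distance of 5 kb to 2485 without a score limit, against 2393. An octamer was in 3.93% of peaks when the central 100 bp were searched, and in the whole peak 7.06% held an octamer or ATGCTAAT. A floor of 5 FPKM left 149, 107 and 40 hosts higher at days 2, 4 and 6 (19.7%, 13.6% and 5.1%, against 8.57%, 4.37% and 2.09% of all genes). With a pseudocount of 0.1, 25 hosts were lower at day 4 (2.24%, against 3.38% of all genes) and 32 at day 6 (2.89% against 3.39%). With 0.5, 23 were lower at day 6 (2.08% against 2.7%). After quantile normalisation 19 were lower at day 2 (1.77% against 3.71%). Outside chromosomes 1 and 14 the shares of hosts higher were 23.6%, 17.2% and 8.71%, against 9.72%, 6.09% and 3.37% of all genes on any chromosome. In limma's fit without the day as a replicate block, 260 hosts (22.2%) were higher and 10 (0.854%) lower at an unadjusted p under 0.05. Of all genes 7.39% were higher and 1.02% lower. Adjustment was passed by 1 host, among 3 of 13661 genes. Adjusted calls of hosts were 11 without day 2, 17 without day 6 and 5 after quantile normalisation, among 57, 44 and 17 genes called. Unadjusted, 195 hosts were higher without day 4, where 905 of all genes were. Lower hosts numbered 55 without day 2 and 15 without day 4, where 742 and 249 of all genes were lower. Lower hosts numbered 54 with libraries scaled to the median ratio and 60 when quantile normalised. Under those last 2 scalings 1112 and 1252 of all genes were lower, against 645 without scaling, and 1522 and 1428 were higher, against 2225. The cause of these shifts was not tested. Of the named hosts' 2-fold differences, none changed sign under either scaling, and another pseudocount cannot change a sign. As these differences were chosen for being past 2-fold, a kept sign says little. The size of the differences moved by more than their spread over the days in 135 of 234 with a pseudocount of 0.1 and in 76 with 0.5. Such moves numbered 19 after quantile normalisation and 3 with the median ratio. The main limits are 1 ChIP library, 1 RNA library per arm and day, and peak scores of unknown scale.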
